A study of Homo sapiens with 30 samples.

Results

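The 9 enzymes described here make serine from a glycolytic intermediate and pass its carbon into the folate pool: PHGDH, PSAT1, PSPH, SHMT1, SHMT2, MTHFD1, MTHFD2, MTHFD1L and ALDH1L2. They were chosen as the rows of the deposited count table whose Ensembl identifiers carry these symbols. Each symbol matched 1 row, giving 9 of 60675 genes. The cells were HT29, a human colorectal adenocarcinoma cell line in long use, and their RNA was sequenced 24 h after vehicle or the 70% ethanol extract of 1 of 4 herbal formulas was added. In 13 groups there were 30 libraries: 3 of vehicle, 3 at each of 500, 100 and 20 µg/mL for Soshiho-tang and for Yijin-tang, 2 at each of these doses for Okbyeongpung-san and 1 at each for Soyo-san. All groups were the same line with no stated genetic change. The DMSO content of the vehicle is uncertain, 0.1% in the labels and 2% in the text on the design. That text also states that extracts whose IC20 lay below 500 µg/mL were given at the IC20 and diluted from there, so the doses, taken from the labels, are uncertain too. The 500, 100 and 20 µg/mL groups are called high, medium and low.

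Proliferating cells take up serine and also make it. PHGDH oxidizes phosphoglycerate, PSAT1 transfers an amino group to the product, and PSPH removes the phosphate to give serine. The hydroxymethyltransferases SHMT1, in the cytosol, and SHMT2, in mitochondria, split serine into glycine and a one-carbon unit held by tetrahydrofolate. In mitochondria MTHFD2 oxidizes that unit, after which MTHFD1L releases it as formate or ALDH1L2 oxidizes it to carbon dioxide. In the cytosol MTHFD1 takes up formate for purine and thymidylate synthesis. Several of these genes are textbook targets of ATF4, the transcription factor of the amino acid response.

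Library totals lay between 18.5 and 36.2 M counts. Of 10 colon epithelial markers, 9 were above 1 CPM (counts per M) in all libraries, CDX1 being the exception, and their summed level was 12588 to 14462 CPM in vehicle and 12642 to 13282 CPM in Soshiho-tang high. Between these groups 1 of the 10 rose (KRT20, by 0.52 in log2) and 5 fell, VIL1 by 0.56, LGALS4 by 0.33, KRT19 by 0.19, CDH1 by 0.10 and CDX1 by 0.97, and the part of these changes in the results was not tested. Of all 15895 genes tested 39.2% changed between these groups, 19.3% up and 19.9% down. Markers of blood, stromal, endothelial, liver and muscle cells summed to between 6.68 and 11.8 CPM in all libraries, and 7 of these 10 were below 1 CPM in every library. Mitochondrial transcripts took 11.5 to 13.9% of counts in vehicle, 9.06 to 10.8% in Soshiho-tang high and 10.8 to 12.0% in Soshiho-tang low, and the part of this difference in the results below was not tested. By their names the vehicle libraries form a set apart from the extract libraries, so extract and library set cannot be told apart in a comparison with vehicle. Differences between doses of 1 formula do not use vehicle levels, though vehicle enters the estimate of the spread. Replicates differed most in vehicle: chi-square over its degrees of freedom was 11.2 to 20.6 there and 2.41 to 10.4 within extract groups. For PSAT1 and MTHFD2 the SD of log2 CPM in vehicle was 0.101 and 0.084. The fits share the spread of a gene between groups, so standard errors and p-values against vehicle can be too small. Soyo-san and replicate 3 of Okbyeongpung-san were in batch D by their titles and all other libraries in batch E. In bulk RNA, fewer cells with a transcript and less of it per cell cannot be told apart.

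PSAT1 and MTHFD2 stood higher in Soshiho-tang high than in any other group, and they were joined by smaller rises of MTHFD1L and SHMT2 and a fall of SHMT1. Against vehicle PSAT1 rose 1.43-fold and MTHFD2 1.31-fold, while SHMT1 fell to 0.863 of its vehicle level. PHGDH, PSPH, MTHFD1 and ALDH1L2 did not pass the test in any comparison. In Yijin-tang high PSAT1 and MTHFD2 passed, each at 1.12-fold, and in Okbyeongpung-san high MTHFD2 passed, at 1.19-fold. These 2 of 9 and 1 of 9 stand beside 21.4% and 4.38% of all genes, the former near the background. These calls were lost when only the libraries compared were fitted.

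In vehicle the level per kb of the longest annotated transcript was highest for SHMT2, at 82.0 CPM per kb, followed by PSAT1 at 39.3 and MTHFD2 at 27.5. It was 25.5 for SHMT1, 21.7 for MTHFD1, 18.4 for PSPH, 12.3 for MTHFD1L and 11.8 for PHGDH. ALDH1L2, the mitochondrial formyl-tetrahydrofolate dehydrogenase, was lowest by far at 0.0924 CPM per kb. Per kb of merged exons SHMT2, PSAT1 and MTHFD2 were again the highest and ALDH1L2 the lowest, while SHMT1 and PHGDH dropped to 8.63 and 3.31 CPM per kb, so the middle of the order depends on the length used.

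Stretches near the starts of 4 of the enzymes are shown because their transcripts rose together (PSAT1, MTHFD2 and MTHFD1L) or, for MTHFD1, because it is the cytosolic counterpart that did not pass the test. Windows from 250 bases before to 50 after each RefSeq start on GRCh38.p14 were found for 6 of the 9 enzymes, as 9 windows with 4 for MTHFD1L, and each was searched on both strands for TGATGNAA, the core of the element bound by ATF4 with a C/EBP partner, TGACNNNGC, the core of the antioxidant response element, and CACGTG, the E-box of MYC-family factors. Capitals mark a match and all stretches are written 5′ to 3′ on the plus strand. The PSAT1 stretch is chr9:78296975-78297124, MTHFD2 chr2:74198465-74198561, MTHFD1L chr6:150866346-150866375 and MTHFD1 chr14:64388323-64388352.
PSAT1: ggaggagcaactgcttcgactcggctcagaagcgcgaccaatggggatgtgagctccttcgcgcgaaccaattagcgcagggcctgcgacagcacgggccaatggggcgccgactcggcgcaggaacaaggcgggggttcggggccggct
MTHFD2: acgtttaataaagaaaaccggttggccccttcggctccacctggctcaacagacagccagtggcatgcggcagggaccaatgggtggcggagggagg
MTHFD1L: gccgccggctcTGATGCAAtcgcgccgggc
MTHFD1: tggccagtccctaagCACGTGggttgggtt
The MTHFD1L stretch holds TGATGCAA, 129 bases before 1 of its annotated starts, with a CACGTG farther out at 154 bases. Both lie in 3 overlapping MTHFD1L windows, so their position depends on the start used. From another start TGATGCAA lies 90 bases before and CACGTG 115 before. From a further start TGATGCAA lies at base 25 after it and CACGTG 1 base before. MTHFD1 holds CACGTG 15 bases before its start, and MTHFD2 holds GCGCAGTCA, the antioxidant element core read on the other strand, at base 7 after its start, beyond the stretch shown. Of 35116 windows of 300 bases, 3.62% held TGATGNAA, 13.3% TGACNNNGC and 7.26% CACGTG. None of the 3 motifs was found in the windows of PHGDH, PSAT1 and SHMT1, which says only that these letters are not in those 300 bases.

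Of the serine synthesis enzymes, that of the middle step alone passed the test. PHGDH (ENSG00000092621, chr1:119648411-119744226 on GRCh38, plus strand), the dehydrogenase that opens the pathway, was at 30.9, 30.3 and 30.2 CPM in vehicle and 32.4, 33.4 and 31.5 CPM in Soshiho-tang high. The Soshiho-tang high values lay just above vehicle without overlap, but the difference of 0.09 ± 0.05 in log2 (SE) had an adjusted p of 0.16 (edgeR, quasi-likelihood, adjusted by Benjamini-Hochberg over all genes, as for every adjusted p of a single gene here). Over all 30 libraries PHGDH kept to between 27.6 and 33.4 CPM. PSPH (ENSG00000146733, chr7:56011051-56051604, minus strand), the phosphatase of the last step, was at 39.3, 37.7 and 43.0 CPM in vehicle and 37.2, 39.3 and 36.8 CPM in Soshiho-tang high. These ranges overlapped, and the difference was -0.08 ± 0.051 (adjusted p = 0.22). No extract library lay above the highest vehicle library for PSPH, whose range over all libraries was 36.7 to 43.0 CPM.

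PSAT1 (ENSG00000135069, chr9:78297143-78330093, plus strand), the aminotransferase between those 2 steps, was at 86.8, 91.7 and 79.8 CPM in vehicle. In Soshiho-tang it was at 90.1, 89.8 and 88.9 CPM at the low dose, 94.7, 96.5 and 95.3 CPM at the medium dose and 121, 122 and 126 CPM at the high dose. The high-dose libraries stood above every other library of the series. The nearest was the single Soyo-san high library at 106 CPM. PSAT1 rose by 0.52 ± 0.042 in log2 against vehicle (adjusted p = 2.1e-10), and by 0.45 ± 0.043 against the low dose (adjusted p = 3.3e-09), a difference that does not use vehicle levels, though the vehicle libraries share the fit. With only the libraries compared in the fit it was again 0.45 and passed. At the medium dose the rise over vehicle was 0.15 ± 0.043 (adjusted p = 0.012), and at the low dose the difference was 0.06 ± 0.043 (adjusted p = 0.35). The medium-dose call was lost without vehicle replicate 3 (0.10) and when only those 6 libraries were fitted (0.16).

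**Figure D1:**
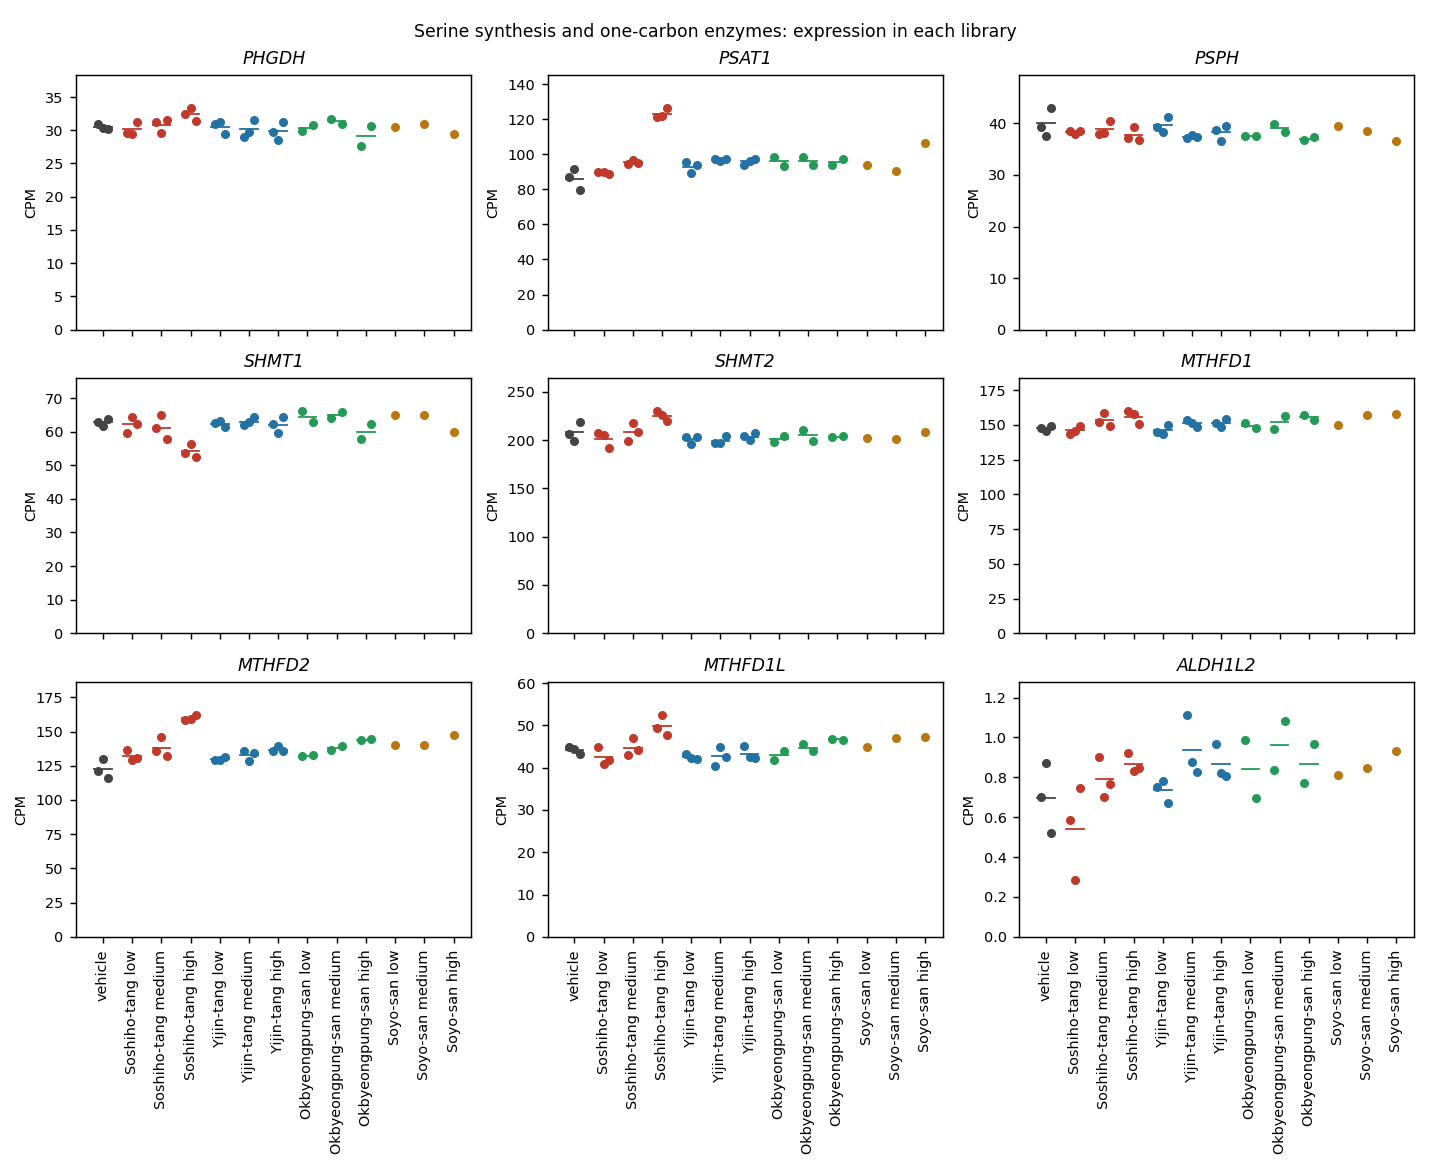
Expression of each of the 9 enzymes in CPM (vertical axis from 0), 1 point per library and a line at the group mean, for vehicle and each formula from low to high dose. PSAT1 at 121 to 126 CPM and MTHFD2 at 158 to 162 CPM in Soshiho-tang high lie above all other libraries, SHMT1 at 52.6 to 56.2 CPM lies below them, and PHGDH and PSPH stay within a narrow range.

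The hydroxymethyltransferase pair moved in opposite directions. SHMT1 (ENSG00000176974, chr17:18327860-18363563, minus strand), the cytosolic enzyme, was at 63.0, 61.6 and 63.8 CPM in vehicle, 59.6, 64.4 and 62.4 CPM in Soshiho-tang low, 61.0, 64.9 and 57.8 CPM at the medium dose and 53.6, 56.2 and 52.6 CPM at the high dose. All 3 high-dose libraries were below every other library of the series. SHMT1 fell by 0.21 in log2 against vehicle (SE 0.046, adjusted p = 0.00056) and by 0.20 against the low dose (SE 0.047, adjusted p = 0.0017). SHMT2 (ENSG00000182199, chr12:57229327-57234935, plus strand), the mitochondrial enzyme, was at 206, 199 and 219 CPM in vehicle, 207, 206 and 192 CPM in Soshiho-tang low, 199, 218 and 208 CPM at the medium dose and 229.8, 226 and 220.2 CPM at the high dose. The high-dose libraries were the 3 highest of the series, but by a narrow margin over vehicle replicate 3. SHMT2 rose by 0.12 ± 0.04 against vehicle (adjusted p = 0.024) and by 0.16 ± 0.041 against the low dose (adjusted p = 0.0047). The call against vehicle was lost without vehicle replicate 2 (0.09), without Soshiho-tang high replicate 1 (0.11) or replicate 2 (0.12), without a filter on low counts (0.11) and when only those 6 libraries were fitted (0.12).

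Of the 4 members that carry folate-bound units onward, MTHFD2 and MTHFD1L passed the test in Soshiho-tang high. MTHFD2 (ENSG00000065911, chr2:74198562-74217565, plus strand), the mitochondrial methylene-tetrahydrofolate dehydrogenase, was at 121, 130.1 and 116 CPM in vehicle. In Soshiho-tang it was at 136, 129 and 130.3 CPM at the low dose, 136, 146 and 132 CPM at the medium dose and 158, 159 and 162 CPM at the high dose. Here too the high-dose libraries were the highest of the series, while vehicle had the lowest group mean, 122 ± 7.19 CPM (SD, n = 3). MTHFD2 rose by 0.39 ± 0.043 against vehicle (adjusted p = 4.2e-08), by 0.27 ± 0.043 against the low dose (adjusted p = 1.8e-05) and by 0.18 ± 0.043 at the medium dose against vehicle (adjusted p = 0.0045). The medium-dose call was lost without Soshiho-tang medium replicate 2 (0.13) and when only those 6 libraries were fitted (0.18).

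MTHFD1L (ENSG00000120254, chr6:150865549-151101887, plus strand), which releases formate in mitochondria, was at 44.9, 44.4 and 43.1 CPM in vehicle, 44.8, 40.9 and 41.8 CPM in Soshiho-tang low and 49.3, 52.4 and 47.8 CPM at the high dose. The high dose did not overlap either group. MTHFD1L rose by 0.18 ± 0.051 against vehicle (adjusted p = 0.0064) and by 0.23 ± 0.051 against the low dose (adjusted p = 0.0013). The call against vehicle was lost without Soshiho-tang high replicate 2, where the difference was 0.14. MTHFD1 (ENSG00000100714, chr14:64388031-64463457, plus strand), the cytosolic enzyme with 3 activities of the folate cycle, was at 148, 146 and 149 CPM in vehicle and 159.7, 158 and 150.4 CPM in Soshiho-tang high. Its difference of 0.08 ± 0.036 did not pass the test (adjusted p = 0.073). It passed with another scaling, with DESeq2 and without Soshiho-tang high replicate 3, each with a difference of 0.10. Against the low dose, where MTHFD1 did not pass either, it did so in 4 of 12 alternatives (0.08 to 0.11 over all 12).

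ALDH1L2 (ENSG00000136010, chr12:105019784-105084577, minus strand) had only 7 to 28 counts per library, or 0.286 to 1.11 CPM. It was at 0.699, 0.873 and 0.519 CPM in vehicle and 0.920, 0.830 and 0.846 CPM in Soshiho-tang high, which overlap. The difference was 0.31 ± 0.27 against vehicle (adjusted p = 0.37) and 0.67 ± 0.29 against the low dose (adjusted p = 0.087). With such errors a change of the size seen for PSAT1 would not be detectable for ALDH1L2 at this depth. The difference from the low dose passed in 1 of 12 alternatives, without Soshiho-tang low replicate 3 (adjusted p = 0.027).

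In all, 4 of the 9 enzymes rose and 1 fell in Soshiho-tang high against vehicle, beside 39.2% of all 15895 genes tested that changed, 19.3% up and 19.9% down. Their median log2 difference was 0.12, beside -0.03 for all genes. Against the low dose of the same formula the counts were again 4 up and 1 down, beside 26.6% of all genes, 13% up and 13.6% down, and the median was 0.16 beside -0.01. At the medium dose 2 of 9 passed against vehicle, PSAT1 and MTHFD2, beside 18.3% of all genes. At the low dose 0 of 9 passed by edgeR's test, beside 16.8% of all genes, and 1 by DESeq2, beside 2420 of 13076. At an unadjusted p under 0.05 the low-dose count was 1, MTHFD2, without a matched share of all genes. The medium-dose share is near the background.

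Yijin-tang gave smaller and flatter differences in the same 2 genes. PSAT1 was at 94.1, 96.3 and 97.3 CPM at the high dose, 97.5, 96.0 and 97.2 CPM at the medium dose and 95.4, 89.4 and 94.0 CPM at the low dose. It rose against vehicle at the high dose by 0.16 ± 0.043 (adjusted p = 0.0075) and at the medium dose by 0.18 ± 0.043 (adjusted p = 0.0043), and at the low dose the difference was 0.12 ± 0.043 (adjusted p = 0.06). MTHFD2 was at 136, 139 and 135 CPM at the high dose, and rose by 0.17 ± 0.043 (adjusted p = 0.0063). At the medium dose, with 136, 128 and 134 CPM, it rose by 0.12 ± 0.043 (adjusted p = 0.043). Thus 2 of 9 passed at the high dose, beside 21.4% of all genes, and 2 of 9 at the medium dose, beside 18.4%. At the low dose 0 of 9 passed by edgeR, beside 16.8%, and 1 by DESeq2, beside 2491 of 13076 genes. At an unadjusted p under 0.05 the low-dose count was 2 (PSAT1 and MTHFD2), without a matched share of all genes. The high-dose and medium-dose shares are near the background.

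Between Yijin-tang high and low 0 of 9 passed by edgeR, beside 1.92% of all genes, and 0 by DESeq2, beside 308 of 13711. At an unadjusted p under 0.05 the count was also 0, without a matched share of all genes. PSAT1 differed by 0.04 ± 0.043 (adjusted p = 0.76) and MTHFD2 by 0.07 ± 0.043 (adjusted p = 0.52). SHMT1, SHMT2 and MTHFD1L differed from vehicle at the high dose by -0.01 ± 0.046, -0.03 ± 0.041 and -0.02 ± 0.051, with adjusted p between 0.71 and 0.89. All 4 Yijin-tang calls against vehicle were lost when only the libraries compared were fitted, with PSAT1 at 0.17 and MTHFD2 at 0.17 for the high dose and 0.18 and 0.12 for the medium dose. Leaving out vehicle replicate 3, the lowest library for both genes, gave 0.11 for PSAT1 at the high dose and 0.09 for MTHFD2 at the medium dose, neither of which passed. The MTHFD2 call at the medium dose was also lost without vehicle replicate 1, without Yijin-tang medium replicate 1 or replicate 3 and with no filter on low counts (each 0.11).

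Set directly against Yijin-tang high, Soshiho-tang high had higher PSAT1 (0.36 ± 0.042, adjusted p = 6e-07), MTHFD2 (0.22 ± 0.043, adjusted p = 0.00053), MTHFD1L (0.20 ± 0.051, adjusted p = 0.0083) and SHMT2 (0.14 ± 0.041, adjusted p = 0.019), and lower SHMT1 (-0.20 ± 0.047, adjusted p = 0.0036). These 5 of 9 stand beside 13.1% of all genes. SHMT2 lost its call without replicate 1 or replicate 2 of either group (0.13 to 0.14), and MTHFD1L without Soshiho-tang high replicate 2 (0.16). The step from low to high dose was larger in Soshiho-tang than in Yijin-tang for PSAT1, by 0.41 ± 0.06 (adjusted p = 5.2e-05). It was 0.20 ± 0.06 larger for MTHFD2 (adjusted p = 0.057), 0.20 ± 0.073 for MTHFD1L (adjusted p = 0.12) and 0.14 ± 0.058 for SHMT2 (adjusted p = 0.21), and -0.19 ± 0.066 for SHMT1 (adjusted p = 0.096), so that 1 of 9 passed this test of the difference, beside 4.69% of all genes.

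**Figure D2:**
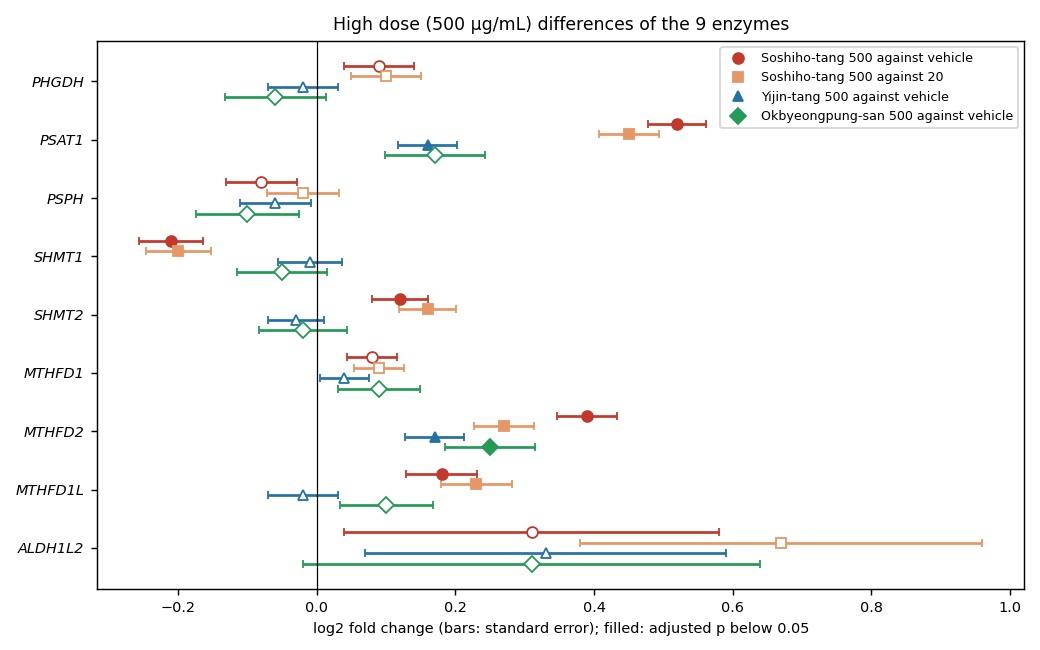
Log2 fold change of each enzyme (horizontal axis) with its standard error, for the high dose of 3 formulas against vehicle and for Soshiho-tang high against low. Filled symbols have an adjusted p below 0.05. PSAT1 at 0.52 and 0.45 and MTHFD2 at 0.39 and 0.27 are farthest to the right among the filled symbols, SHMT1 at -0.21 and -0.20 is the one gene with filled symbols on the left, and ALDH1L2 has the widest bars.

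Okbyeongpung-san was fitted with vehicle alone. MTHFD2 was at 144 and 144 CPM at the high dose, 136 and 139.7 CPM at the medium dose and 132 and 133 CPM at the low dose, with the batch E library given first in each pair. All 6 values lay above the highest vehicle library of 130.1 CPM. At the high dose MTHFD2 rose by 0.25 ± 0.065 (adjusted p = 0.047), the 1 of 9 that passed, beside 4.38% of all genes. PSAT1 was at 94.1 and 97.5 CPM at that dose, also above all vehicle libraries, with a difference of 0.17 ± 0.072 (adjusted p = 0.19). By edgeR 0 of 9 passed at the medium dose, beside 0.108% of all genes, at the low dose, beside 0.273%, and between high and low, beside 0.558%. By DESeq2 these counts were 0, beside 147 of 7920, 522 of 7920 and 96 of 15499 genes. At an unadjusted p under 0.05 they were 2 (PSAT1 and MTHFD2), 1 (PSAT1) and 0. The share of all genes at that looser cut-off is not given here, so these last counts have no matched background.

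The MTHFD2 call in Okbyeongpung-san was lost without vehicle replicate 3 (0.21), without either Okbyeongpung-san library and when only the libraries compared were fitted (each 0.25). Batch D holds no vehicle library, so a difference from vehicle within that batch could not be computed. Without replicate 3 of Okbyeongpung-san high, the difference was 0.25, from 1 high-dose library, in batch E, against vehicle. The batch D libraries of the other doses stayed in that fit, so no fit was within batch E alone. In Soyo-san, with 1 library per dose and no replicate check, PSAT1 was at 106, 90.4 and 94.0 CPM from high to low dose and MTHFD2 at 147, 140.5 and 140.5 CPM. These stood 0.31, 0.07 and 0.13 above the vehicle mean in log2 for PSAT1, and 0.27, 0.20 and 0.20 above it for MTHFD2. SHMT1 was at 59.8, 64.9 and 64.8 CPM and SHMT2 at 209, 202 and 202 CPM. No enzyme was past 1.5-fold in Soyo-san at any dose, beside 1.36% of genes that were higher and 2.87% lower by that fold at the high dose, 1.18% and 1.65% at the medium dose, and 1.45% and 1.63% at the low dose. PSAT1 in Soshiho-tang high, at 1.43-fold over vehicle, would not pass this cut-off either, so it cannot show changes of that size.

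Across the 13 groups the order of mean PSAT1 levels ran from Soshiho-tang high (123 ± 2.94 CPM, SD, n = 3) and the Soyo-san high library to Soshiho-tang low (89.6 ± 0.642, n = 3) and vehicle (86.1 ± 5.98, n = 3). In the stretch of the order from Yijin-tang medium (96.9 ± 0.776, n = 3) to Soshiho-tang medium (95.5 ± 0.899, n = 3) neighbors overlapped, and vehicle overlapped Soshiho-tang low. For MTHFD2 the order opened with Soshiho-tang high (159.8 ± 2.01, n = 3), the Soyo-san high library at 147 and Okbyeongpung-san high (144 ± 0.248, n = 2), and it closed with vehicle. The ratio of the highest to the lowest group mean was 1.43 for PSAT1, 1.31 for MTHFD2, 1.20 for SHMT1, 1.17 for MTHFD1L, 1.13 for SHMT2, 1.11 for PHGDH, 1.09 for PSPH and 1.08 for MTHFD1. For ALDH1L2 it was 1.78, from a few counts per library.

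SHMT2, MTHFD2 and MTHFD1L, which act in mitochondria, were also set against the cytosolic SHMT1 or MTHFD1 within a library, as a log2 ratio of CPM. SHMT2 over SHMT1 was 1.71, 1.69 and 1.78 in vehicle, 1.80, 1.67 and 1.62 in Soshiho-tang low, 1.71, 1.75 and 1.85 at the medium dose and 2.10, 2.01 and 2.07 at the high dose. The high-dose libraries lay above all the others, by a mean of 0.33 over vehicle and 0.36 over the low dose. For MTHFD2 over MTHFD1 the mean was 0.03 at the high dose, -0.27 in vehicle and -0.15 at the low dose, again without overlap. For MTHFD1L over MTHFD1 it was -1.65, -1.74 and -1.78, overlapping the low dose. With 3 libraries against 3, the two-sided exact permutation test cannot give a p below 0.1. That value was reached in 5 of the 12 comparisons (adjusted p = 0.24 over the 12), none of them in Yijin-tang, where exact p lay between 0.2 and 0.8.

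**Figure D3:**
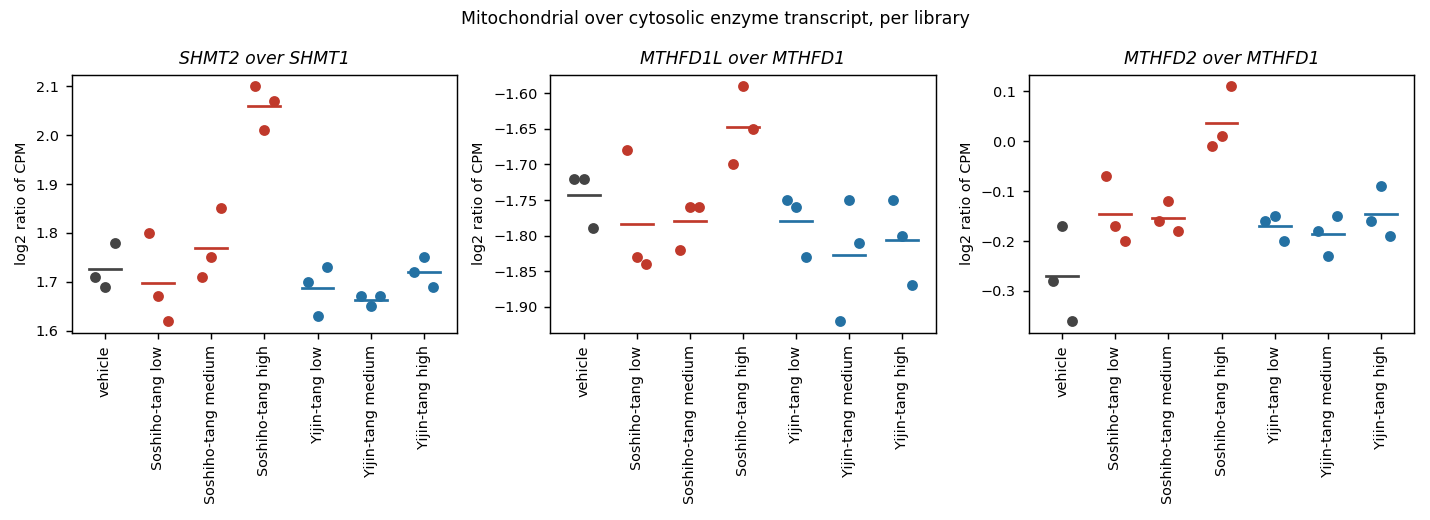
Log2 ratio of CPM of a mitochondrial over a cytosolic enzyme (vertical axes, each with its own range) in each library of vehicle, Soshiho-tang and Yijin-tang, with a line at the group mean. For SHMT2 over SHMT1 the Soshiho-tang high libraries lie between 2.01 and 2.10, above all others. For MTHFD2 over MTHFD1 they have a mean of 0.03, against -0.27 in vehicle.

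Neighboring genes of the pathway moved both ways. Of 14 other folate enzymes and carriers, 3 rose and 5 fell in Soshiho-tang high against vehicle, and 4 rose and 4 fell against the low dose. Over all genes 19.3% rose and 19.9% fell in the former and 13% and 13.6% in the latter, so the 3 of 14 that rose against vehicle are near the background. SLC25A32, which carries folate into mitochondria, rose by 0.32 ± 0.055 against vehicle (adjusted p = 3.9e-05) and 0.26 ± 0.055 against the low dose (adjusted p = 0.00087), from 49.7 to 61.7 CPM. TYMS, thymidylate synthase, rose by 0.24 and 0.16 in these comparisons. FOLR1, a folate receptor, fell by 1.68 and 1.23 at a low level, from 1.36 to 0.418 CPM. ALDH1L1, the cytosolic counterpart of ALDH1L2, fell by 0.41 against vehicle (SE 0.12, adjusted p = 0.0075) and by 0.68 against the low dose (SE 0.12, adjusted p = 7.6e-05).

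In the glycine cleavage system, which splits glycine in mitochondria, AMT, GCSH and DLD could be tested. Against vehicle they differed by -0.42, 0.09 and 0.10 (adjusted p = 0.16, 0.38 and 0.086), and GLDC was too low to test. In the methionine cycle 4 of 6 tested genes rose and 1 fell against vehicle, but against the low dose 0 rose and 1 fell. Over all genes 19.3% rose and 19.9% fell against vehicle, and 13% and 13.6% against the low dose. The 1 of 6 that fell is thus near the background. MAT2A, which makes S-adenosylmethionine, rose by 0.23 against vehicle (adjusted p = 0.00012) and differed by 0.11 from the low dose (adjusted p = 0.073). SARDH, a mitochondrial enzyme that releases a one-carbon unit from sarcosine, fell by 1.59 and 1.36 in these comparisons, from 1.37 to 0.461 CPM. CTH, the transsulfuration enzyme that yields cysteine, rose by 0.40 against vehicle (SE 0.14, adjusted p = 0.022) and differed by 0.33 from the low dose (adjusted p = 0.086).

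In de novo purine synthesis, which takes 2 formyl groups from folate, 2 of 6 genes rose in each comparison, beside 19.3% of all genes that rose against vehicle and 13% against the low dose. PPAT, the committing enzyme, and GART, which uses formyl-tetrahydrofolate, rose by 0.43 and 0.19 against vehicle. Against the low dose GART and PAICS rose by 0.11 each, and PPAT differed by 0.12 (adjusted p = 0.11). Of 10 genes for transport and use of serine and glycine, 6 rose and 1 fell against vehicle, and 5 rose and 1 fell against the low dose. Over all genes 19.9% fell in the former comparison and 13.6% in the latter. SLC38A1, an amino acid transporter, rose by 0.58 and 0.38, from 351 CPM in vehicle to 526 CPM. SFXN1, the mitochondrial serine carrier, rose by 0.24 and 0.15, and SLC1A5 by 0.26 and 0.32. SLC6A9, a glycine transporter, rose by 0.76 and 0.97 at about 2 CPM.

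Of 11 other amino acid genes of the ATF4 response, 6 rose and 1 fell in Soshiho-tang high against vehicle (median 0.42), and 7 rose and 0 fell against the low dose (median 0.40). Over all genes 19.3% rose and 19.9% fell in the former (median -0.03), and 13% and 13.6% in the latter (median -0.01). ASNS, asparagine synthetase, went from 53.1 ± 3.58 CPM in vehicle to 88.7 ± 4.36 CPM (SD, n = 3), a rise of 0.74 ± 0.05 (adjusted p = 4.4e-12). SLC7A11, the cystine transporter, rose by 1.88 ± 0.092, from 113 to 414 CPM, and its partner SLC3A2 by 0.62 ± 0.049. TRIB3 and CHAC1, stress-response genes, rose by 0.42 and 0.52. DDIT3 differed by 0.22 from vehicle (adjusted p = 0.14) and rose by 0.40 against the low dose. The transcript of ATF4 itself is 1 of the 11 and was named after its values were seen. It differed by -0.01 from vehicle (adjusted p = 0.88). Against the low dose it rose by 0.14 ± 0.044 (adjusted p = 0.017) and is 1 of the 7 counted there.

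In Yijin-tang high against vehicle, 2 of the 11 rose and 3 fell (median -0.14), beside 21.4% of all genes changed. ASNS differed by -0.03 ± 0.051 (adjusted p = 0.72), SLC7A11 rose by 0.90 ± 0.091 and CHAC1 fell by 0.54. The step from low to high dose was larger in Soshiho-tang than in Yijin-tang for 6 of the 11, beside 4.69% of all genes that differed either way, ASNS by 0.75 ± 0.072 (adjusted p = 6.5e-08) and SLC3A2 by 0.48 ± 0.07 (adjusted p = 4.5e-05) among them. Of the 5 transcription factors linked to these genes, NFE2L2, which encodes NRF2, rose in Soshiho-tang high by 0.30 against vehicle and 0.22 against the low dose. MYC fell by 0.35 against vehicle (adjusted p = 0.00051) and differed by 0.14 from the low dose (adjusted p = 0.15). MYC also fell in Yijin-tang high, by 0.47. Its mean was 343 CPM in vehicle and already 242, 242 and 238 CPM in Soshiho-tang, Yijin-tang and Okbyeongpung-san low. ATF5 fell by 0.22 in Soshiho-tang high against vehicle (adjusted p = 0.0015), from 98.6 to 84.9 CPM, with 83.2 CPM in Soshiho-tang low.

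**Figure D4:**
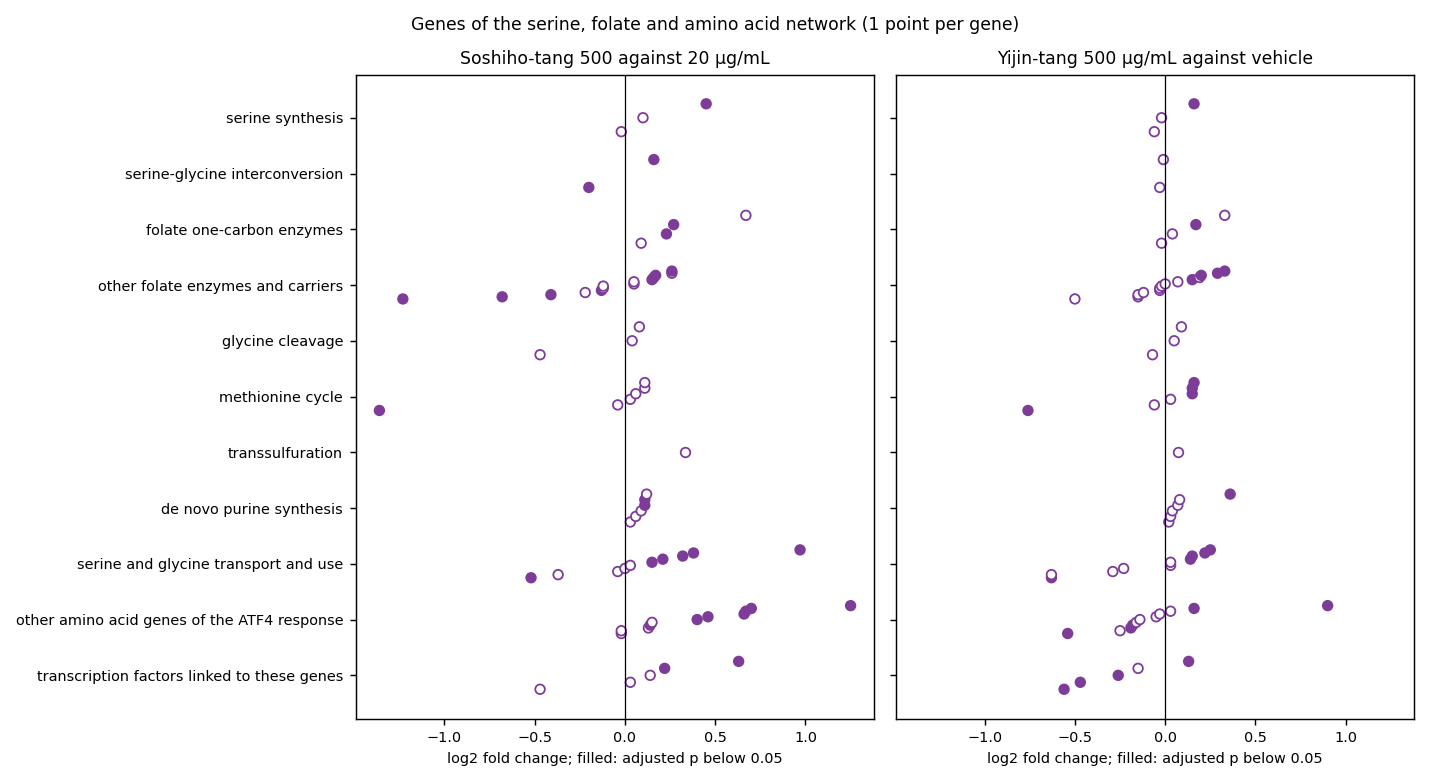
Log2 fold change (horizontal axis) of the enzymes and of the other genes in each list, 1 point per gene, in Soshiho-tang high against low (left) and Yijin-tang high against vehicle (right). Filled points have an adjusted p below 0.05. In the ATF4 response list 7 of 11 genes are filled on the right side of the left panel. In the right panel, whose reference is vehicle, 2 are filled on the right side and 3 on the left. Yijin-tang high against low, not drawn, had 2 higher and 1 lower. The other folate genes lie on both sides of 0.

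Over the 13 group means, which share the vehicle and the scaling, the Pearson r of log2 CPM was taken between each of 4 enzymes and 10430 genes with a mean of at least 5 CPM, as a description. For PSAT1 the closest genes were CUL1 (r = 0.946), TMED5 (r = 0.944) and PRELID3B (r = 0.943). MTHFD2 had r = 0.86 with PSAT1, ranking 252 among the genes compared, while SHMT1 had r = -0.81. For MTHFD2 the closest were SLC20A1 (r = 0.968), ERO1A (r = 0.964) and SEH1L (r = 0.963), and for SHMT2 EREG (r = 0.950), PADI2 (r = 0.944) and WSB2 (r = 0.925). For PHGDH, the closest was ERLEC1 at r = 0.845, and PSAT1 reached 0.39. Among pseudogenes named for these enzymes the highest level was 0.395 CPM, which does not show how many reads they share with the enzymes, since RSEM divides such reads between the copies.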

How the data were processed

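The submitters' processing notes name RSEM 1.3.3, STAR 2.7.3a, Trim Galore 0.6.5 and FastQC 0.11.9, and the build GRCh38. The authors deposited RSEM expected counts per gene that are not scaled between libraries. The annotation release is not given in the sources used here. Per the labels' protocols the library kit was directional, with 100 bp paired-end reads. A further 30 columns of the deposited counts, without a name or values, were not used. RSEM divides reads between genes that share sequence, so genes with close copies are less certain.

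Expected counts were rounded and analysed in R 4.3.3 with edgeR 4.0.16 (filterByExpr, TMM, robust quasi-likelihood test, Benjamini-Hochberg adjustment over all genes tested, threshold 0.05). A fit of 21 libraries and 15895 genes held vehicle, Soshiho-tang and Yijin-tang, and a fit of 9 libraries and 15764 genes held vehicle and Okbyeongpung-san. Standard errors derive from the F statistic. CPM values use TMM factors over all 30 libraries, and Soyo-san differences a prior count of 2. The test was tried on simulated data. Gene coordinates come from GENCODE 29 on GRCh38. Nothing in the labels makes replicates separate cultures: p-values cover only the spread of these samples, which may be technical. Every pair of replicates differed by more than sampling noise, with 11.2 to 20.6 in vehicle and 2.41 to 10.4 in extract groups as chi-square over its degrees of freedom. Alternatives were another scaling (RLE), no filter on low counts, DESeq2 1.42.0, a replicate block, fits of only the libraries compared or of all 30, and leaving out each replicate.

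The members and lists were chosen with earlier results of these data known. Named were all members and, of each other list, up to 4 genes with the smallest adjusted p in Soshiho-tang high against vehicle and up to 2 more against the low dose. Some genes that this rule picks are not reported here. The nearest 3 genes by Pearson r were named for PHGDH, PSAT1, SHMT2 and MTHFD2. Wortmannin at 10 µM, named as a positive control, is not analysed here.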

Additional observations from a re-analysis of the deposited data

Results flagged for a closer look

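The step of PSAT1 from the low to the high dose differed between formulas by a test of that difference. It was 0.45 ± 0.043 in log2 in Soshiho-tang, from 89.6 to 123 CPM, and 0.04 ± 0.043 in Yijin-tang, from 92.9 to 95.9 CPM. The difference of 0.41 ± 0.06 had an adjusted p of 5.2e-05 by edgeR's quasi-likelihood test. The estimate does not use vehicle levels, though the vehicle libraries share the fit. It passed under every alternative run, with values between 0.39 and 0.44.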

How the results depend on the processing

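In comparisons that share libraries, 23 of 126 enzyme changes passed, beside 0.108% to 39.2% of all genes in each. Of these, 12 passed under every alternative, among them all 5 in Soshiho-tang high against low. At that dose PSAT1, MTHFD2 and SHMT1 also did so against vehicle (0.47 to 0.56, 0.35 to 0.43 and -0.24 to -0.19). The other 11 lost their call under some alternative, and 13 uncalled changes gained one. The count of enzymes called ranged as follows when each replicate was left out: 3 to 6 (main count 5) for Soshiho-tang high against vehicle, lowest without Soshiho-tang high replicate 2; 1 to 2 (main 2) for Soshiho-tang medium, Yijin-tang high and Yijin-tang medium; 0 to 1 (main 0) for Soshiho-tang low; 0 to 2 (main 0) for Yijin-tang low, highest without vehicle replicate 2; 0 to 1 (main 1) for Okbyeongpung-san high; and 3 to 5 (main 5) for Soshiho-tang high against Yijin-tang high. These ranges lack the share of all genes in the same fits. Fitting only the libraries compared gave 0 for Soshiho-tang medium, Yijin-tang high, Yijin-tang medium and Okbyeongpung-san high against vehicle. It gave 1 between Okbyeongpung-san high and low, beside 938 of 14920 genes. For the difference of the dose steps it gave 3 (main 1), beside 1352 of 15476 genes. Fitting all 30 libraries at once gave 2 for Okbyeongpung-san high, 2 for its medium dose and 1 for its low dose. These stand beside 2963, 1454 and 2425 of 16886 genes, and the high-dose and low-dose counts are near that background. For the difference of the dose steps this fit gave 2, beside 723 of 16886 genes. DESeq2 gave 1 for Soshiho-tang low, 1 for Yijin-tang low and 2 for the difference of the dose steps. RLE scaling gave 1 for Yijin-tang low, and no filter on low counts gave 1 for Yijin-tang medium. Such fits differ in the number of libraries that set the spread and in the share of vehicle, which has the widest replicates. Beyond that the cause was not tested.

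Among the log2 ratios of mitochondrial over cytosolic enzyme, 3 values near 0 in Yijin-tang high changed sign when a replicate was left out: SHMT2 over SHMT1 against vehicle (-0.03 to 0.02), MTHFD1L over MTHFD1 against the low dose (-0.05 to 0.01) and MTHFD2 over MTHFD1 against the low dose (0 to 0.05).

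Over all genes, fitting only the libraries compared moved the number called from 2911 to 559 for Soshiho-tang medium, from 2677 to 362 for Soshiho-tang low, from 3396 to 1042 for Yijin-tang high, from 2924 to 575 for Yijin-tang medium, from 2678 to 498 for Yijin-tang low, from 305 to 869 between Yijin-tang high and low, and from 745 to 1352 for the difference of the dose steps. Leaving out 1 replicate gave as few as 1529 for Soshiho-tang low (without its replicate 3), 1707 for Yijin-tang low (without its replicate 3) and 147 between Yijin-tang high and low (without high replicate 1). Okbyeongpung-san counts moved most: at the high dose 690 became 1432 without the filter, 216 with only the libraries compared, 2963 with all 30 libraries and 55 to 1298 when a replicate was left out. At its medium dose 17 became 430, 3 and 1454, and 147 with DESeq2; at its low dose 43 became 1114, 18 and 2425, and 522 with DESeq2; between high and low 88 became 226, 938 and 347. Leaving out a replicate gave 3 to 323 at the medium dose, 0 to 871 at the low dose and 12 to 21 between high and low, so the background shares of these comparisons are uncertain too. The share of higher calls between Yijin-tang high and low was 35.4% and, with DESeq2, 46.4%.

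Deviations of replicates with the same number correlated weakly (-0.06 to 0.09 over 63 pairs). Between Soshiho-tang high and medium these correlations were 0.06, 0.06 and 0.07, against -0.05 to -0.02 for unlike numbers. For vehicle with Soshiho-tang high they were -0.03, -0.03 and -0.02. Such small values of both signs do not settle whether the numbers pair the libraries. With the replicate number as a block the count of enzymes called was 5 in Soshiho-tang high against vehicle and no call of an enzyme changed. The genes called with the block numbered 97, 495 and 156 for Okbyeongpung-san medium, low and high against low. Depth limits ALDH1L2, with at most 28 counts per library.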
